A study of Junonia coenia with 38 samples.

Results

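Hindwings of the buckeye butterfly Junonia coenia were compared with forewings 72 h after pupation. The comparison takes the 6 RNA-seq libraries that the labels place at this stage, 3 from forewings and 3 from hindwings, out of 24 wing libraries and 38 libraries in all. The count columns of these libraries are headed d3, which was read as day 3. All animals were reared at about 27 °C, and no treatment or genotype other than the species is given. Each library was made from poly-A RNA of whole wings. The other wing libraries come from the same wings at the 5th larval instar, the prepupa and a late pupal stage, 3 per wing and stage; the labels of the late stage differ among themselves on its day. Libraries of a forewing and a hindwing with the same number were taken as a pair, since their deviations from the group mean went together (see the correlations under the processing). The labels do not say whether a pair came from 1 animal, nor the sex or the number of animals in a library. In the paired fit of all 24 wing libraries, p-values measure the spread of the wing difference among these pairs, pooled over all stages. Whether that is a spread between animals is not known.

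Forewing and hindwing of a butterfly are serially homologous appendages, built by largely the same genes. The homeotic gene Ultrabithorax, which is active in the hindwing and not in the forewing, sets them apart in insects. In the pupa the wing epithelium forms rows of scale cells, which build a cuticle of chitin and protein and are later filled with pigment. The series title names the transcription factors spineless and EcR, the latter a receptor of the moulting hormone ecdysone, whose pulses time these steps. In the deposited table a gene model is only a contig with a start and an end. No model is paired with a gene name, so neither Ultrabithorax nor any marker of the wing or of other cell types could be looked up. The identity of the tissue therefore rests on the labels. Models are written as contig:start-end, with positions counted from 1, since 12 models begin at 1 and 0 at position 0. In whole wings, fewer cells of a type and less RNA per cell cannot be told apart.

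Total counts ran from 10247975 to 13355152 in the 3 forewing libraries and from 5795618 to 11089240 in the 3 hindwing libraries. The scaling factors of edgeR's TMM method were 0.866, 0.920 and 1.07 in forewings 1 to 3 and 0.717, 0.828 and 0.986 in hindwings 1 to 3. Averaged over both wings on the log2 scale, 8.51% of models tested were at least 2-fold higher in pair 1 than in pair 2. Another 9.38% were at least 2-fold lower. For pair 1 against pair 3 these shares were 13% and 10.8%, and for pair 2 against pair 3 they were 13.6% and 8.79%. Pair 3 stood apart, though pairs 1 and 2 were not alike, and the next counts were made for pair 3 only. Of the 13282 models tested, 242 were at least 4-fold lower in pair 3 than in both other pairs in each wing, and 55 were at least 4-fold higher. Results are therefore given also without this pair.

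Paired by number, 358 of the 13282 models differed between the wings (2.70% of those tested, edgeR quasi-likelihood test with Benjamini-Hochberg adjusted p below 0.05). Of these, 205 were higher in the hindwing (1.54%) and 153 were lower (1.15%). The higher models differed by more, with a median log2 fold change of 1.13 (quartiles 0.79 and 1.65), that is hindwing minus forewing on the log2 scale. The lower ones had a median of −0.82 (quartiles −1.19 and −0.64), and the median of all models tested was −0.03. A difference of at least 2-fold was shown by 125 of the higher and 55 of the lower models. The direction was the same in all 3 pairs for 186 of the 205 and for 148 of the 153. The rest went the other way or were level in at least 1 pair. The calls come from these same pairs, so agreement in direction is favoured by the call and is no separate check. Among all models tested, 12.7% were higher and 16.8% lower in the hindwing in all 3 pairs.

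The calls rested on the pairing and on the spread shared with the other stages. Without the pairing, edgeR called 1 model, with 512 at an unadjusted p below 0.05 against 1992 in the paired fit. In a paired fit of the 6 libraries alone, edgeR called 0 models, with 944 at an unadjusted p below 0.05, while DESeq2's paired Wald test over all libraries called 560. Leaving out pair 1 left 158 calls, 71 higher and 87 lower. Leaving out pair 2 left 159, 97 higher and 62 lower. Without pair 3 the count was 1182, with 565 higher and 617 lower, and 198 of the 205 and 120 of the 153 models were among them. The majority of higher over lower calls therefore turned without pair 1 and without pair 3.

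**Figure D1:**
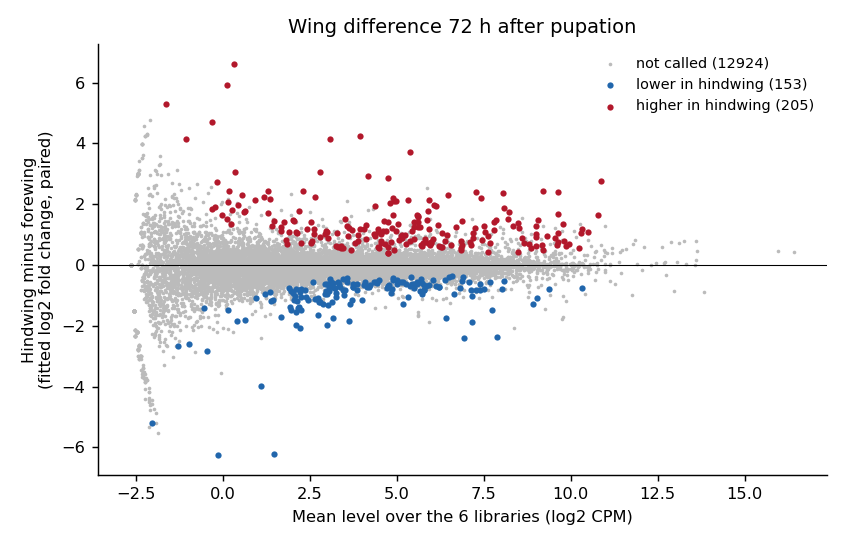
Each point is 1 of the 13282 gene models tested, with its mean level over the 6 libraries at 72 h (log2 of the normalised count, CPM) on the x axis and the paired fitted log2 fold change, hindwing minus forewing, on the y axis. The 205 models called higher in the hindwing are red and the 153 called lower are blue. The higher ones have the larger median difference, while the largest differences are similar in size (6.63 higher and 6.26 lower on the log2 scale).

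The models that were higher in hindwings mostly also differed in level between the pairs. Together the 205 models held 7.45%, 4.33% and 0.901% of all counts in forewings 1, 2 and 3, and 16.4%, 10.3% and 1.27% in hindwings 1, 2 and 3. Hindwings exceeded forewings within each pair, but forewing 1 exceeded hindwing 3, so the groups overlapped. The 153 lower models held 0.670%, 0.942% and 2.73% of counts in the forewings and 0.266%, 0.432% and 1.64% in the hindwings, in the same order. Here the pairs stood the other way round, with pair 3 highest in both wings. Both sets were chosen by the wing difference in these libraries, so the order of the wings within a pair is no separate result. These shares are of the raw counts and do not use the scaling factors, which themselves were highest in pair 3 of each wing. At the other stages the 205 models held between 0.756% and 2.57% of counts in every library, and the 153 held between 0.806% and 3.41%.

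**Figure D2:**
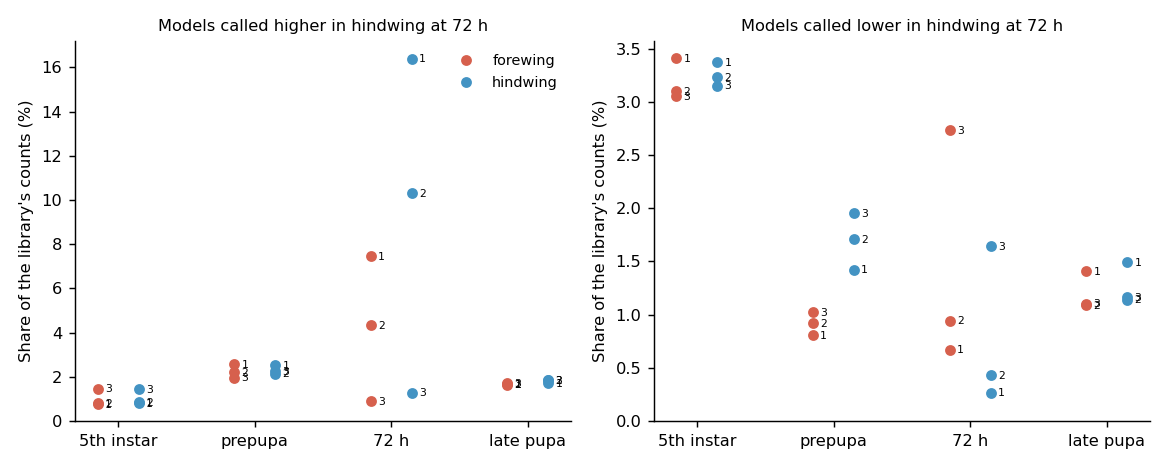
The y axis gives the share of a library's raw counts (percent) held by the models called higher (left) or lower (right) in the hindwing at 72 h, and the x axis the stage; each point is 1 library, with its replicate number beside it. At 72 h the left panel runs from 0.901% in forewing 3 to 16.4% in hindwing 1, and the right panel from 0.266% in hindwing 1 to 2.73% in forewing 3.

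Model by model the same held. The level of a pair was taken as the mean log2 CPM of its forewing and hindwing. The wing difference comes from the same libraries, so a library that stands out moves both, and the 2 measures are not independent. Of the 205 higher models, 200 (97.6%) were higher in pair 1 than in pair 3, against 48.2% of all models tested, and 175 by at least 2-fold. Their median difference between pairs 1 and 3 was 2.86 on the log2 scale, against 0.00 over all models. Pair 2 also exceeded pair 3 in 193 of them, with a median of 1.94. Pair 1 exceeded pair 2 in 187, with a median of 0.74. Of the 153 lower models, 23 (15%) were higher in pair 1 than in pair 3, 77 were at least 2-fold lower in pair 1, and the median difference fell at −1.03. The within-pair wing difference of the higher models had a median of 1.27 in pair 1, 1.18 in pair 2 and 0.57 in pair 3, and that of the lower models −0.88, −0.87 and −0.71.

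The relation also appeared when models were taken by the pairs and not by the wings, though again from the same libraries. Of the 242 models that were at least 4-fold lower in pair 3, 211 (87.2%) had a positive wing difference, with a median log2 fold change of 0.74. Of the 55 that were at least 4-fold higher in pair 3, 4 (7.27%) had a positive one, with a median of −0.49. Over all models tested the share was 45.5%. Calls of a higher hindwing made up 73 of the 242, or 30.2%, and calls of a lower hindwing made up 15 of the 55, or 27.3%. The labels do not say what set the pairs apart, and its part in the wing difference was not tested.

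**Figure D3:**
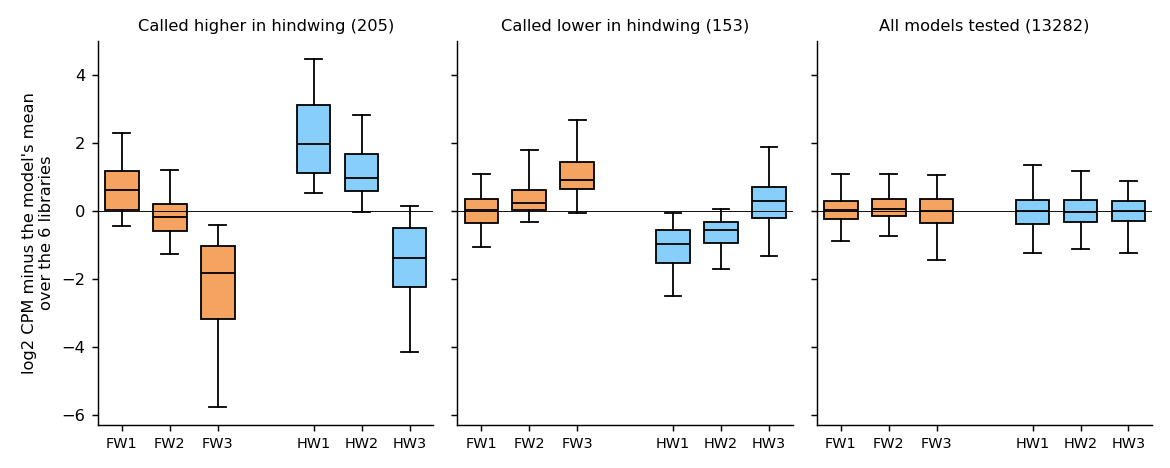
The y axis gives log2 CPM minus the model's own mean over the 6 libraries; boxes are quartiles with the median as a line, and whiskers reach the 5th and 95th percentile of models, for forewings (FW, orange) and hindwings (HW, blue) 1 to 3. In the 205 higher models the medians stand lowest in FW3 and HW3 and highest in HW1, in the 153 lower models FW3 is highest, and over all 13282 models the medians lie near 0.

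A smaller set differed between wings while the pairs stayed alike. With a threshold chosen after the values were seen, 24 of the 205 higher models (11.7%) and 53 of the 153 lower ones (34.6%) varied by less than 2-fold over the pairs, against 64.1% of all models tested. In these the wing difference was mostly small, with medians of 0.69 and −0.73 on the log2 scale. Only 6 of the 24 and 9 of the 53 reached 2-fold. The CPM ranges of forewings and hindwings did not overlap for 14 of the 24 and 31 of the 53. Both the call and the choice of alike pairs used these libraries and favour ranges apart, so this is no separate support. Among all 358, 17 higher and 41 lower models had ranges apart, and among all models tested 1.54% did so with the hindwing higher and 2.90% with the hindwing lower.

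The model 000025F:951192-952313, 1122 bases long, was the 1 model called at 72 h in the unpaired fit, and it is named because that fit called it at every stage. It stood at 0.113, 0.0814 and 0 CPM in forewings 1, 2 and 3 at 72 h and at 9, 6.88 and 5.76 CPM in the hindwings. Every hindwing library lay far above every forewing library, and the pairs barely differed. The paired log2 fold change was 6.63 ± 0.44 (SE; edgeR adjusted p = 1.14e-05). The forewings held 2 counts together and the hindwings 160, a ratio of 113 (95% counting interval 30.9 to 945). Without pair 1, 2 or 3 the log2 fold change was 6.93, 6.92 or 6.21, each called, while the paired fit of the 6 libraries alone gave an adjusted p of 0.108. At the other stages the paired log2 fold change was 6.26 in the 5th instar, 6.80 in the prepupa and 6.25 in the late pupa.

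Among the called models whose log2 CPM averaged at least 1 and whose direction was the same in all pairs, 000021F:1123598-1125064 and 000615F:36199-38780 had the largest fold change towards the hindwing. The former stood at 143, 5.95 and 0 CPM in forewings 1, 2 and 3 and at 3089, 95 and 0.183 CPM in the hindwings. Each hindwing exceeded the forewing of its pair, yet forewing 1 lay above hindwings 2 and 3. Its log2 fold change was 4.25 ± 0.29 (edgeR adjusted p = 3.31e-05). The latter stood at 21.7, 2.28 and 0.356 CPM in the forewings and at 502, 34.6 and 0.641 CPM in the hindwings, a log2 fold change of 4.16 ± 0.37 (adjusted p = 0.000129). In pair 3 both were near absent, and the wing difference there, 1.09 and 0.63 on the log2 scale of CPM, was the smallest of the pairs. At such levels the direction in pair 3 rests on few reads, and the size depends on the prior count. Without the pairing the adjusted p was 1 and 0.813, and in the 6 libraries alone 0.0945 and 0.324. Leaving out pair 1 lowered the latter to 3.57, and both calls held without any 1 pair.

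A neighbour of the former on the same contig, 000021F:1145712-1151060, named after its values were seen, ran in parallel. It stood at 421, 20 and 0.178 CPM in the forewings and at 2093, 64.6 and 1.83 CPM in the hindwings, with a log2 fold change of 2.11 ± 0.31 (edgeR adjusted p = 0.00377). Its call ended without pair 1 (0.0510), without the pairing (1) and in the 6 libraries alone (0.283). In the prepupa this neighbour was already abundant, with mean levels of 1541 CPM in the forewing and 2760 CPM in the hindwing. By contrast 000021F:1123598-1125064 averaged 14.4 and 26.9 CPM there and 1.93 and 1.06 CPM in the late pupa.

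The most abundant model called higher was 000238F:300560-303753. It stood at 11368, 6294 and 3.83 CPM in forewings 1, 2 and 3 and at 42291, 18043 and 203 CPM in the hindwings. Levels in pair 3 were lower by orders of magnitude in both wings, while the order of the wings was kept. The log2 fold change was 2.77 ± 0.65 (edgeR adjusted p = 0.0419), and it rested on the pairs unequally, at 3.36 without pair 1 (adjusted p = 0.0763), 3.62 without pair 2 and 1.70 without pair 3. Without the pairing the adjusted p was 1, and in the 6 libraries alone 0.535. Outside 72 h it reached at most 12.2 CPM in any library.

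In the other direction, 000019F:1481512-1486585 was nearly absent from hindwings. It stood at 19.2, 28.7 and 17.4 CPM in forewings 1, 2 and 3 and at 0, 0.417 and 0.366 CPM in the hindwings, on 718 counts against 6. The groups were far apart and the pairs alike. The log2 fold change was −6.23 ± 0.53 (edgeR adjusted p = 0.000159), and −7.02 without pair 3. Without the pairing the adjusted p was 0.0856, and in the 6 libraries alone 0.115. A neighbour on that contig, 000019F:1490647-1491375, named after its values were seen, stood at 3.95, 6.27 and 3.20 CPM in the forewings and at 0, 0 and 0.0915 CPM in the hindwings. With 1 hindwing count against 148, the forewings were 104 times higher (95% counting interval 18.4 to 4150), and the edgeR adjusted p was 0.00155. Its span overlaps that of another model, so its reads may be shared. Without the pairing its adjusted p was 0.360 and in the 6 libraries alone 0.145; the fitted −8.93 without pair 3, against −6.26, is no bound, since 0 hindwing counts remained.

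By the same rule, the second largest fold change towards the forewing was that of 000011F:2538822-2539403. It stood at 7.56, 7.33 and 6.76 CPM in forewings 1, 2 and 3 and at 0.563, 0.625 and 0.275 CPM in hindwings, a log2 fold change of −3.98 ± 0.62 (edgeR adjusted p = 0.00676). Within each wing the libraries lay close together. The call held without any 1 pair and was lost without the pairing (0.401) and in the 6 libraries alone (0.117). Forewings held 233 counts at 72 h and hindwings 10. In the prepupa the model was also lower in hindwings, at 27.3 CPM ± 11.2 (SD, n = 3) against 69.7 CPM ± 36.3, with a log2 fold change of −1.29 ± 0.29 (adjusted p = 0.00535). In the late pupa it held 39 forewing counts and 1 hindwing count, without a call (edgeR adjusted p = 0.236). In the 5th instar it held 56 and 1, the 56 all in forewing 3, also without a call (0.176).

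The most abundant model called lower, 000090F:323693-327431, differed modestly. It stood at 964, 1279 and 3735 CPM in forewings 1, 2 and 3 and at 463, 781 and 2594 CPM in the hindwings. Pair 3 was highest in both wings, and the groups overlapped. The log2 fold change was −0.76 ± 0.16 (edgeR adjusted p = 0.0292). The call was lost without pair 1 (0.186), without pair 2 (0.118), without the pairing (1) and in the 6 libraries alone (0.440). Its span overlaps another model.

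**Figure D4:**
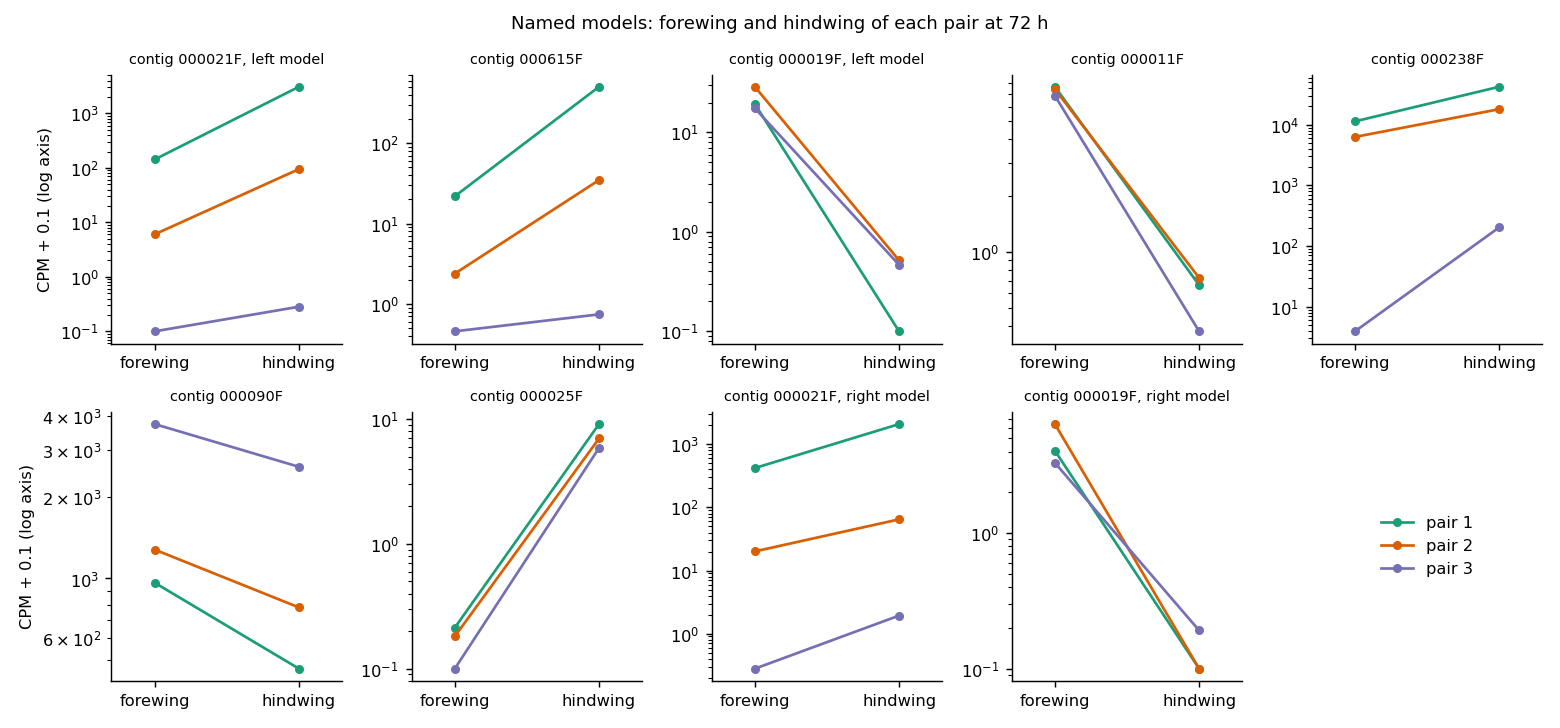
Each panel is 1 named model; the y axis is CPM plus 0.1 on a log axis, the x axis the wing, and a line joins the forewing and hindwing library of a pair. The lines lie close together for contigs 000025F, 000019F and 000011F, and lie up to orders of magnitude apart for contigs 000021F, 000615F and 000238F, with pair 3 lowest there and highest for 000090F.

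The other stages share no library with 72 h, but the fit pools the spread of each model over all stages. A model with a small spread or a high level is called more easily at every stage, so shared calls are no independent result. Of the 205 higher models 82 were called between the wings at 1 or more of them, in either direction, and of the 153 lower models 89, against 4193 of all 13282; most of these calls were prepupal. Few were called in the 5th instar or the late pupa, though their shares were above those of all models in both directions. Of the 205 higher models, 5 were called higher (2.44%) and 2 lower (0.976%) in hindwings of the 5th instar, where 0.497% and 0.489% of all models were called. In the late pupa it was 2 (0.976%) and 1 (0.488%), where 0.188% and 0.271% of all were called. Of the 153 lower models, 1 was called higher (0.654%) and 3 lower (1.96%) in the 5th instar, and again 1 and 3 in the late pupa. The median wing difference of the higher models was 0.04 in the 5th instar and 0.02 in the late pupa, and that of the lower models was 0.03 and −0.07.

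In the prepupa, where 14.6% of all models were higher and 16.3% lower in hindwings, the calls leaned the other way. Of the 205 models higher at 72 h, 28 were called higher in the prepupal hindwing (13.7% of them, 1.44% of the prepupal list) and 48 lower (23.4% and 2.22%). Of the 153 models lower at 72 h, 55 were called higher in the prepupa (35.9% and 2.83%) and 31 lower (20.3% and 1.43%). With DESeq2 size factors 12.0% of all models were higher and 18.9% lower in the prepupa, and the shares were 12.2% and 27.8% of the 205 and 34.0% and 24.2% of the 153. The median prepupal wing difference was −0.11 for the former and 0.19 for the latter, against 0.04 for all models.

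**Figure D5:**
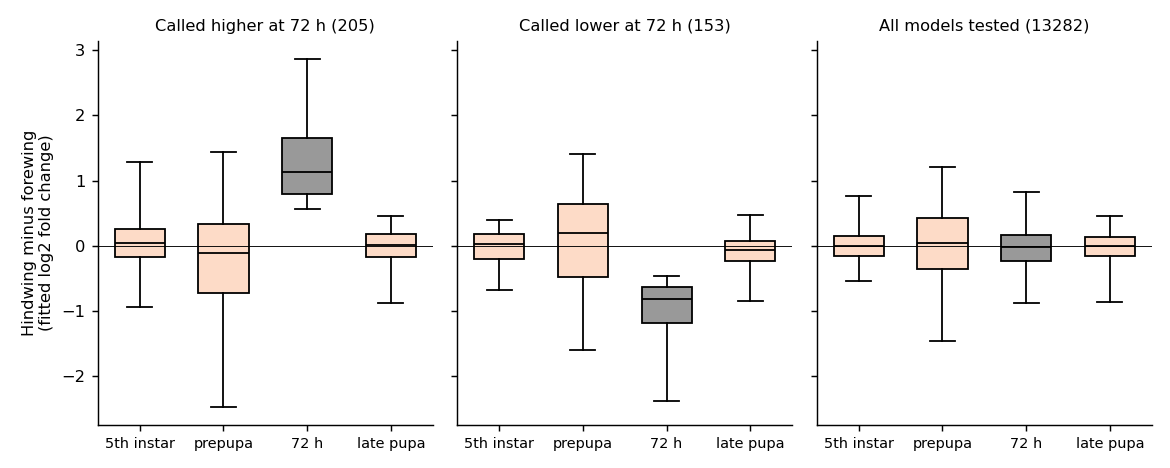
The y axis is the paired fitted log2 fold change, hindwing minus forewing, and the x axis the stage; boxes are quartiles with the median as a line, and whiskers reach the 5th and 95th percentile of models. The grey 72 h boxes are the contrast that chose the models of the left and middle panels, and the medians of these models at the other stages lie between −0.11 and 0.19.

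Over time the directions differed too, but the 72 h level includes the libraries that chose the models. A raised hindwing lifts that level and a lowered one reduces it, so the place of 72 h among the stages is no independent result. Levels averaged over both wings were highest at 72 h for 102 of the 205 higher models (49.8%), against 22.4% of all models, with medians of 2.48, 3.73, 5.03 and 4.21 log2 CPM from the 5th instar to the late pupa. Of the 153 lower models, 66 were highest in the 5th instar (43.1%, against 32.7% of all) and 23 at 72 h, with medians of 5.24, 4.39, 3.67 and 4.10. Taking only the prepupa and the late pupa, 79 of the higher models (38.5%) were at least 2-fold higher in the late pupa and 50 (24.4%) at least 2-fold lower. Of the lower models 37 (24.2%) were higher and 51 (33.3%) lower by that measure. Over all models tested the shares were 22.1% and 20.2%.

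Whether the wing difference at 72 h differed from that at another stage was tested for each model. Against the prepupa, 2789 models differed (21.0% of those tested), 1450 with a larger and 1339 with a smaller hindwing-minus-forewing value at 72 h; with DESeq2 size factors this split was 1789 and 1075. Against the 5th instar 114 differed (0.858%), 53 upward and 61 downward, and against the late pupa 94 (0.708%), 61 upward and 33 downward. Without pair 3 the counts against the 5th instar and the late pupa were 757 and 606. Without the pairing they were 536 against the prepupa, 1 against the 5th instar and 0 against the late pupa, where 291 had an unadjusted p below 0.05 and DESeq2's paired test called 194. These 3 tests share the 72 h libraries. The models given next had the largest changes among called models whose log2 CPM averaged at least 1 over both stages and whose wing difference had the same direction in all pairs at 72 h.

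Against the larva, the largest upward change was that of 000615F:36199-38780, whose wing difference was −0.15 in the 5th instar and 4.16 at 72 h (difference 4.31 ± 0.46, edgeR adjusted p = 0.00203; 1 without the pairing and 0.0961 in the 2 stages alone). In the late pupa this model stood at 332 CPM ± 46.4 (SD, n = 3) in forewings and 380 CPM ± 10.7 in hindwings, so it reached a high level in both wings at that stage. The largest downward change was that of 000232F:434614-437944. It was higher in larval hindwings, at 8.82 CPM ± 2.66 against 1.55 CPM ± 0.113. At 72 h it stood at 168, 250 and 230 CPM in forewings 1, 2 and 3 and at 125, 165 and 101 CPM in hindwings, a wing difference of −0.73 ± 0.19 that missed the threshold (adjusted p = 0.0633). The difference between the stages was −3.20 ± 0.32 (edgeR adjusted p = 0.00176; 0.0193 without the pairing).

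Against the prepupa, 000019F:1481512-1486585 had the largest downward change at that level; its scarcer neighbour 000019F:1490647-1491375 changed by −6.86 ± 0.86 (edgeR adjusted p = 0.000359). In the prepupa it stood at 50.6 CPM ± 22.7 (SD, n = 3) in forewings and 57.4 CPM ± 16.4 in hindwings, and its hindwing level was near 0 at 72 h (difference −6.46 ± 0.62, edgeR adjusted p = 5.26e-05). The largest upward change was that of 000109F:1149299-1156337, whose span overlaps another model. It stood at 706, 419 and 8.90 CPM in forewings 1, 2 and 3 and at 2115, 855 and 85.8 CPM in the hindwings at 72 h. In the prepupa it held 11 forewing counts and 1 hindwing count, so that forewings were 15.3 times higher with a 95% counting interval of 2.22 to 656. The difference was 5.45 ± 1.69 (adjusted p = 0.0375), 4.88 without pair 3, and was lost without pair 1 (0.0663) and without the pairing (0.339).

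Against the late pupa, 000131F:943455-955088 and 000009F:2347780-2359181 changed most, and both spans overlap another model. The former had similar levels at 72 h, at 12.9, 15 and 15.3 CPM in forewings 1, 2 and 3 and 6.47, 13.1 and 14.8 CPM in hindwings (edgeR adjusted p = 0.577). In the late pupa its 96 forewing counts were all in forewing 1, at 12.3 CPM, and the hindwings held 0, at least 30.5-fold lower. The difference between the stages rests on this 1 library (8.25 ± 1.19, a size that depends on the prior count, adjusted p = 0.0276). It was lost without pair 2 (0.0673), without the pairing (1), in the 2 stages alone (0.0799) and by DESeq2, where it was 2.32 (0.931). The latter rose to 265, 131 and 206 CPM in late forewings and 516, 255 and 400 CPM in late hindwings, from at most 1.87 CPM at 72 h. At 72 h 34 counts in forewings and 4 in hindwings gave a wing difference of −2.15 that missed the threshold (adjusted p = 0.101), against 0.96 in the late pupa. The difference was −3.11 ± 0.62 (adjusted p = 0.0446), −4.22 without pair 1 (0.0804) and −2.52 without pair 2 (0.352), and was lost with DESeq2 size factors (0.0525), in the 2 stages alone (0.0548) and without the pairing (1).

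The called models were spread over the assembly. The 205 lay on 123 contigs and the 153 on 95, of the 689 contigs that held tested models. Their spans had medians of 6640 and 8222 bases, against 6181 for all models. Their mean level was higher, with medians of 5.03 and 3.67 log2 CPM against 3.10, and calls depend on the level. Runs of 3 or more called models, with at most 1 uncalled tested model between neighbours, held 18 of the higher models in 6 runs (8.78%) and 16 of the lower ones in 5 runs (10.5%).

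All 6 runs of higher models held 3 called models, so those given were chosen among ties by their median fold. On contig 000051F, from 533597 to 561081, 3 adjacent models had log2 fold changes of 2.12, 2.14 and 2.42. Their median level was 16.6, 5.05 and 0.356 CPM in forewings 1, 2 and 3 and 118, 16.7 and 0.366 CPM in the hindwings. On contig 000282F, from 292524 to 350877, 3 of 4 tested models were called, with log2 fold changes from 1.49 to 2.19 and median levels of 314, 143 and 13.9 CPM in forewings 1, 2 and 3 and of 1044, 471 and 100 CPM in the hindwings. The longest run of lower models held 4 on contig 000011F, from 935604 to 1022278, with log2 fold changes from −0.82 to −0.73. Next, by the same choice among ties, came 3 models on contig 000426F, from 79046 to 128529. Their log2 fold changes ran from −2.07 to −1.27, and all 3 were also called lower in prepupal hindwings. The median prepupal wing difference went the other way in the other runs named, at −2.35 on 000051F, −1.64 on 000282F and 0.83 on 000011F, and was −0.58 on 000426F. Yet 1 of the 3 called models on 000282F was called higher in the prepupal hindwing too.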

How the data were processed

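For the 24 wing libraries the authors deposited raw counts, which are whole reads assigned to each gene model. TopHat, bedtools and DESeq2 are listed, without versions, in the submitters' processing notes. Aligner settings, genome build, annotation and any use of strand: not given in the sources used here. Counts are not known to be stranded, so reads of antisense or overlapping models and of near-identical copies may be divided or shared. The table holds 19234 models on 811 contigs, and 3767 spans overlap another. All 24 count columns were used; the 14 libraries outside the wing series were not analysed here.

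The function filterByExpr of edgeR 4.0.16 (R 4.3.3) removed low models, at a minimum of 10 counts and of 15 in total. The 13282 models kept held at least 99.9% of each library's counts. Libraries were scaled by TMM. The two-sided quasi-likelihood test used all 24 libraries, with a term for each replicate number within a stage (the replicate block) and a wing term for each stage, which leaves 8 residual degrees of freedom. The biological coefficient of variation was 14.7%, against 38.7% without the block. Replicate numbers come from the labels. Across models, deviations from the group mean at 72 h correlated at 0.703 to 0.757 between forewing and hindwing of the same number, so the numbers were taken to pair the samples. Between different numbers the correlation was −0.161 or less. Deviations from a group mean cancel over its libraries, so these negative values follow from the positive ones and add no support. The correlations are those at 72 h, while the block was used at every stage. The SE was taken as the size of the log2 fold change over the root of F. CPM uses the TMM factors; mean log2 CPM adds a prior of 2 counts, which narrows differences between pairs at low levels. Bounds and 95% intervals on ratios cover counting error only, with a floor of 3 counts over a group. The test was also run on simulated counts.

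Alternatives were the fit without the block, DESeq2 1.42.0 (size factors, and its Wald test with the block), no filter and a stricter one (mean log2 CPM of 1 or more), only the stages compared, a minimum fold, and leaving out each pair at 72 h. In a paired fit, leaving out 1 library removes what its partner tells, so pairs were left out whole. Models named are the 2 called highest and 2 lowest by fold at a mean log2 CPM of 1 or more with the same direction in all pairs, the most abundant called in each direction, the largest change each way against each other stage, and any called at all 4 stages without the block. The pairing, rule and lists were chosen with earlier results of these data known. Lists of wing, hormone, pigment and cell type genes could not be used, since no names are paired with the models.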

Additional observations from a re-analysis of the deposited data

Results flagged for a closer look

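A difference between stages in the wing effect, by the test of that difference, drew attention to 114 models against the 5th instar, 2789 against the prepupa and 94 against the late pupa. Such a difference can come from the wing difference at either stage. Among those named, the wing difference changed by 4.31 (000615F:36199-38780) and −3.20 (000232F:434614-437944) on the log2 scale against the 5th instar. It changed by 5.45 (000109F:1149299-1156337) and −6.46 (000019F:1481512-1486585) against the prepupa. Against the late pupa it changed by 8.25 (000131F:943455-955088, where 1 late forewing library holds all late counts) and −3.11 (000009F:2347780-2359181).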

How the results depend on the processing

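Precision is limited by 3 pairs per stage, by 5795618 counts in the shallowest library, and by models with few counts in 1 wing. The count of models called between the wings at 72 h, 358, was 386 with DESeq2 size factors, 409 without a filter and 413 with the stricter one. It was 560 by the DESeq2 Wald test, 180 with a 2-fold minimum, 0 in the libraries of 72 h alone, 1 with no replicate block, and 158 to 1182 without 1 pair. The count against the 5th instar, 114, was 189 without a filter, 178 with the stricter one, 343 by DESeq2, 3 in the 2 stages alone, 1 with no replicate block and 64 to 757 without 1 pair. Against the prepupa, 2789 became 1505 in the 2 stages alone and 536 with no replicate block. Against the late pupa, 94 became 194 by DESeq2, 24 in the 2 stages alone, 0 with no replicate block and 60 to 606 without 1 pair. In fits of fewer stages the residual degrees of freedom fall; no other cause was tested. Of the 15 values of named models, all kept their direction under every alternative that gave one. Calls were lost for 12 with no replicate block, 12 in the stages compared alone, and 5, 3 and 0 without pair 1, 2 and 3. With DESeq2 size factors 1 was lost. By the DESeq2 Wald test 1 was lost and 1 had no adjusted p. The stricter filter gives no value for 000025F:951192-952313 and 000019F:1490647-1491375, which lie below it. The prepupal shares under DESeq2 size factors were added after the data were seen.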
